A study of Danio rerio with 18 samples.

Results

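Endothelial cells from the trunk of ythdf2 morphant zebrafish embryos were set against endothelial cells of control embryos, both at 28 hours post-fertilization (hpf). The comparison used 4 of the 18 samples of the series, chosen by their labels, with 2 RNA-seq count columns per group. The morphant samples carry the genotype label ythdf2 and the control samples the label normal. A morphant is an embryo injected with a morpholino, an antisense oligonucleotide that blocks translation or splicing of a chosen transcript. The morpholino, what control embryos received, the fish strain, the number of embryos pooled and the way in which endothelial cells were isolated are given in no source used here. Other libraries of the series served as context. They were endothelial cells of mettl3 morphants, m6A immunoprecipitation (IP) and input libraries of control and mettl3 morphant trunks, and RNA bound to Flag-tagged Ythdf2 (RIP) from embryos injected with ythdf2-Flag mRNA.

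N6-methyladenosine (m6A) is a methyl mark on messenger RNA, written by a complex around Mettl3. Ythdf2 is a cytoplasmic reader of the mark that recruits the deadenylation machinery, so that bound transcripts decay. In the trunk of the embryo, endothelial cells line the vessels, and those of the ventral wall of the dorsal aorta turn into blood stem and progenitor cells in the endothelial-to-haematopoietic transition. Notch signalling sets arterial identity and is needed earlier in the same cells, and the m6A pathway has been linked to this transition through the turnover of Notch transcripts.

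The ythdf2 morphant columns held 3.57 M and 3.59 M counts on genes, and the control columns 4.75 M and 4.67 M. The columns of a group differed by little more than sampling noise, with a chi-square per degree of freedom of 1.04 in the ythdf2 morphant pair (p = 0.00402) and 1.04 in the control pair (p = 0.00162). Replicate pairs of the trunk libraries gave 59.4 to 338. The columns of each group were therefore summed into a pool and counted as 1 sample per group. There is no replicate check, no test and no p-value for the difference between the pools, and all intervals cover counting error only. At equal depth 14062 genes had a count in the ythdf2 morphant pool, 13588 in the mettl3 morphant pool and 16384 in the control pool.

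The targeted gene was measured first. YTHDF2 (ENSDARG00000014498) had 21.2 and 27.3 CPM (counts per 1000000 gene counts, after scaling) in the ythdf2 morphant columns, against 6.09 and 9.85 CPM in the control columns. The transcript was 3.05-fold higher in the ythdf2 morphant pool (log2 fold 1.61, 95% interval 1.21 to 2.03), on 186 and 70 summed counts. A morpholino that blocks translation need not lower its transcript, but which kind was used is not known here. The label could therefore not be checked by this level, and the pools are named here as they are labelled. The cause of the higher level was not tested. The unscaled level of YTHDF2 was 26.0 CPM in the ythdf2 morphant pool, 7.10 CPM in the mettl3 morphant pool and 7.43 CPM in the control pool, and 26.6 and 37.2 CPM in the trunk inputs of control embryos. The other cytoplasmic readers were under 2-fold apart, with log2 folds of 0.28 for YTHDF1 (0.09 to 0.46) and 0.55 for YTHDF3 (0.25 to 0.86), as was the writer METTL3 at 0.48 (0.20 to 0.77). In the mettl3 morphant pool METTL3 had a log2 fold of 2.54 against the same control pool. That label could not be checked by this level either, and the cause was not tested.

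Of 13202 genes with at least 20 summed counts in at least 1 pool, 2857 (21.6%) were at least 2-fold higher in the ythdf2 morphant pool and 4257 (32.2%) at least 2-fold lower. At least 4-fold apart were 1423 higher and 2916 lower genes. The median log2 fold of all kept genes was −0.16 with TMM scaling and 0.03 with scaling by total counts, so list medians are read against −0.16 below. A pool of 0 counts was common, with 1467 kept genes at 0 in the ythdf2 morphant pool and 446 in the control pool. Of these, 238 and 54 had at least 100 counts in the other pool. With so large a share of genes past 2-fold, a single gene past that fold is not set apart from the rest.

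**Figure D1:**
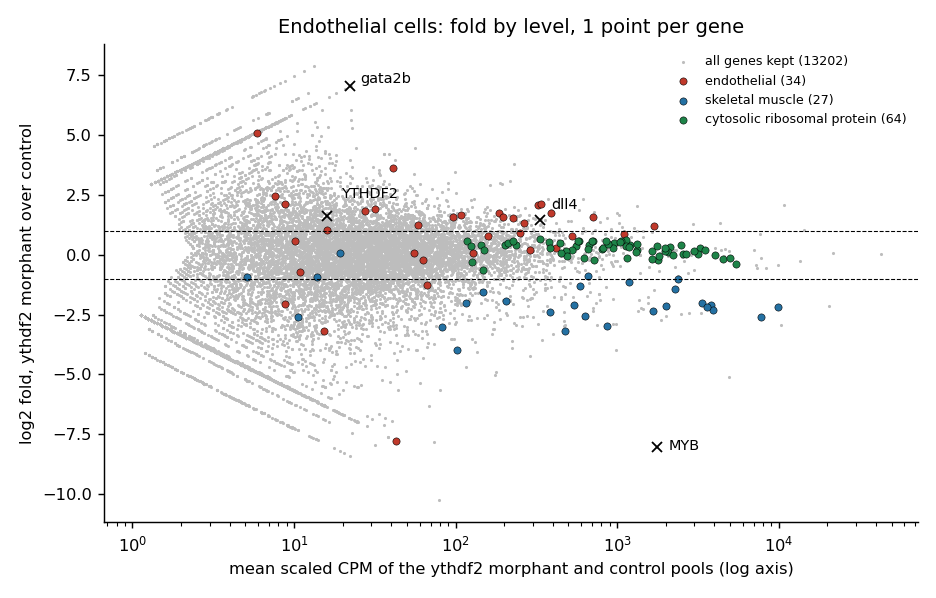
Each point is 1 of 13202 genes, with the mean scaled CPM of the ythdf2 morphant and control pools on a log axis and the log2 fold of ythdf2 morphant over control on the other axis. Dashed lines mark 2-fold. Endothelial genes (red) lie mostly above 0, skeletal muscle genes (blue) below it and ribosomal protein genes (green) between the dashed lines, with MYB at −8.01 and gata2b at its bound of 7.02. The diagonal lines of grey points at low levels are genes at 0 or a few counts in a pool.

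The share of genes past 2-fold depended on level. Among 5311 genes with a mean under 10 CPM, 28.0% were higher and 48.9% lower, and 26.1% were at 0 in the ythdf2 morphant pool against 8.25% in the control pool. Among 991 genes of 100 to 300 CPM, 12.2% were higher and 14.6% lower. At 1000 CPM and over the shares were 8.87% and 22.6% of 124 genes. Lower genes outnumbered higher ones in every bin of level, by the least at 30 to 100 CPM (17.1% lower, 16.2% higher). The median log2 fold was −0.91 in the lowest bin and 0.00 in the highest. The control pool was deeper (9.42 M against 7.15 M counts), and a gene at 0 in a pool passed the minimum only through the other. Without control column 1 or 2 the higher genes of all levels numbered 3003 or 3002 and the lower genes 3196 or 3233. Without ythdf2 morphant column 1 or 2 the higher genes numbered 2317 or 2266 and the lower genes 4374 or 4368. The excess thus shrank without either control column and grew without either ythdf2 morphant column, by about as much whichever was left out. Leaving out a column also lowers the depth of its pool, and the part of depth was not tested.

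**Figure D2:**
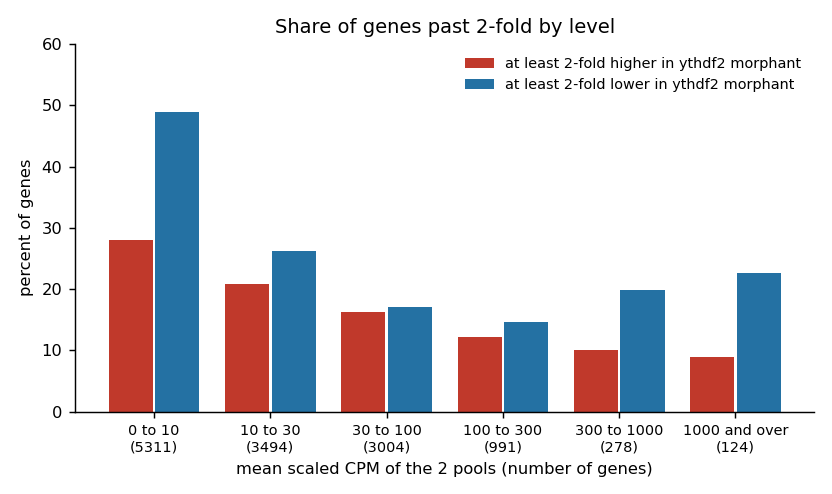
Bars give the percent of genes at least 2-fold higher (red) or lower (blue) in the ythdf2 morphant pool, for 6 bins of mean scaled CPM, with the number of genes in each bin in parentheses. Under 10 CPM 28.0% were higher and 48.9% lower, and from 100 to 300 CPM 12.2% were higher and 14.6% lower.

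The genes with a symbol that were farthest apart by the interval limit nearest to 0 included gata2b, a GATA factor of haemogenic endothelium, which headed the higher genes. The other 11 on that side were TTLL11 (a tubulin-modifying enzyme), BBX (an HMG-box protein), MATCAP2, KIF6 (a kinesin), ZMYND8 (a chromatin reader), DNAH2 (an axonemal dynein), PFAS (an enzyme of purine synthesis), BRPF3 (a scaffold of histone acetyltransferases), si:ch211-244b2.3, zgc:110626 and zgc:194659. PFAS had 151 and 191 counts in the ythdf2 morphant columns and 2 and 1 in the control columns (log2 fold 7.03, 5.47 to 9.32). The others were at 0 in both control columns, with bounds from at least 54.4-fold (zgc:194659) to at least 121-fold (TTLL11) higher, against a floor of 3 summed counts. The highest level of these 12 genes in any column was the 49.7 CPM of PFAS in ythdf2 morphant column 2.

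On the lower side stood the blood stem cell factor MYB, the flow-responsive endothelial factor klf2b, the neural homeobox genes GSX1 and pou3f1, the melanin synthesis genes DCT and TYRP1, the tetraspanins CD151 and cd9b, obsl1a (a relative of the muscle protein obscurin), arhgap32b, tars3 (a threonyl-tRNA synthetase) and C25H11orf96. GSX1 had 1 and 0 counts in the ythdf2 morphant columns against 677 and 721 in the control columns (log2 fold −10.25, −15.55 to −7.77). The 10 other than MYB and GSX1 had no count in the ythdf2 morphant pool and were at least 120-fold (tars3) to at least 219-fold (klf2b) lower. Genes of neural, pigment and muscle type thus stood beside vascular ones among the genes farthest apart.

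Among genes with a symbol and a mean of at least 100 CPM, where counting error is small, the genes highest and lowest by fold were picked after the values were seen. The highest was CXCR4, a chemokine receptor, at 340 and 327 CPM in the ythdf2 morphant columns against 41.0 and 43.1 CPM in the control columns (log2 fold 2.99, 2.83 to 3.15). After it came HEY2 (2.94), the cytosolic chaperone HSP90AA1 (2.90), SNCG (a synuclein, 2.55), SERPINH1 (a collagen chaperone, 2.32), PPP6R3 (2.30), si:dkey-153m14.1 (2.30) and MCAM (an endothelial adhesion molecule, 2.27). The tight junction gene CLDN5 had 2.25, the orphan receptor GPR182 of venous and sinusoidal endothelium 2.11, SOX7 2.06, the transglutaminase gene f13a1b 2.01, HAPLN3 1.97 and COPB2 1.96. Several of these genes are known from endothelium.

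The 15 lowest of that level were MYB (−8.01), the elongation factor EEF2 (−5.01), tnn (−4.89), the chemokine cxcl18b (−4.68), the adenine nucleotide carrier SLC25A4 (−4.21), si:ch211-251b21.1 (−4.08), the stress-induced factor ATF3 (−3.97) and ldb3a (−3.96). With them were myoz1b (−3.90), CHRNA1 (−3.63), cavin4b (−3.60), mybpc2b (−3.58), COL1A1 (−3.33), the mRNA-decay adaptor ZFP36L1 (−3.30) and tcap (−3.17). ldb3a, myoz1b, mybpc2b and tcap belong to the sarcomere, cavin4b to muscle caveolae and CHRNA1 to the neuromuscular junction.

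Most measured endothelial genes were higher in the ythdf2 morphant pool. Of 70 listed genes 43 matched a single gene identifier, 34 of these passed the count minimum, 19 were at least 2-fold higher and 4 at least 2-fold lower, where 21.6% and 32.2% of all genes were. Their median log2 fold was 1.23, and 17 to 20 members were higher in each alternative other than total-count scaling, which gave 21. The summed level of the matched genes was 11414 CPM in the ythdf2 morphant pool, 12335 CPM in the mettl3 morphant pool and 4726 CPM in the control pool, before TMM scaling, against 843 and 1040 CPM in trunk inputs of control embryos. All of the endothelial pools were thus richer in these transcripts than whole trunk, the control pool the least. In bulk RNA, more endothelial cells in a pool and more of these transcripts per cell cannot be told apart.

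Of the transcription factors of this list, SOX7 had 522 and 515 CPM in the ythdf2 morphant columns against 121 and 129 CPM in the control columns (log2 fold 2.06, 1.96 to 2.15). ERG, an ETS factor that keeps endothelial identity, had 51.1 and 49.2 CPM against 13.98 and 12.8 CPM in control (1.90, 1.60 to 2.21). sox18 was under 2-fold apart at 0.90 (0.80 to 0.99), or 1.09 with total-count scaling. Both columns of each group lay apart from those of the other for these 3 genes. This is no replicate check, since the columns of a group count as 1 sample.

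The angiopoietin receptors TIE1 and tek had log2 folds of 1.57 (1.41 to 1.73) and 1.64 (1.49 to 1.80), with 147 and 140 CPM of TIE1 in the ythdf2 morphant columns against 45.1 and 51.8 CPM in the control columns. The VEGF decoy receptor flt1 had 1.31 (1.21 to 1.401). The scavenger receptors stab1 and stab2 of venous endothelium had 1.51 (1.401 to 1.61) and 1.21 (1.17 to 1.24). The junction regulator rasip1 had 1.71 (1.63 to 1.80). The highest folds of the list were on low control levels, with 5.08 (3.48 to 7.38) for the apelin receptor aplnra on 3 control counts and 3.62 (3.22 to 4.05) for the endothelial surface gene ecscr, at 71.5 and 79.4 CPM against 6.54 and 5.73 CPM in control.

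The 4 lower members of the list were klf2b, cdh5, KDR and NR2F2. klf2b, a target of blood flow, had no count in either ythdf2 morphant column against 389 and 367 counts in the control columns, and was at least 219-fold lower, while its paralog klf2a stood at −0.24 (−0.43 to −0.06). The vascular cadherin cdh5, the defining adherens junction gene of endothelium, had 3.67 and 2.34 CPM in the ythdf2 morphant columns against 24.6 and 30.5 CPM in the control columns (−3.19, −3.88 to −2.57). Trunk inputs of control embryos held 22.4 and 29.4 CPM of cdh5, so the control endothelial pool was at the trunk level for this gene. The VEGF receptor KDR had −2.06 (−2.73 to −1.45) and the venous factor NR2F2 −1.25 (−1.45 to −1.06). Against the same control pool, the mettl3 morphant pool had log2 folds of 0.03 for klf2b, −0.24 for cdh5, −0.43 for KDR and 0.05 for NR2F2. The markers kdrl, fli1a, pecam1 and egfl7 have no single identifier in the table of gene names and no value here.

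Markers of other cell types moved with this result. Of 27 skeletal muscle genes that passed the minimum, none was higher and 23 were lower, where 21.6% and 32.2% of all genes were. Their median log2 fold was −2.10. The summed scaled level of the 29 matched genes, of 60 listed, was 17953 and 17712 CPM in the ythdf2 morphant columns. It was 76040 and 75240 CPM in the control columns. Before scaling it was 19090 CPM in the ythdf2 morphant pool, 4803 CPM in the mettl3 morphant pool and 70661 CPM in the control pool, against 50506 and 50527 CPM in trunk inputs. For the matched genes, the control pool thus held more RNA per count than whole trunk. Muscle markers such as actc1b, acta1b and mylpfa have no single identifier and are not in these sums. No matched muscle gene that passed the minimum was at 0 in a pool. Their part in the endothelial result was not tested.

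Within the muscle list, contractile and calcium-handling genes made up most of the level. The calcium pump atp2a1 had 3570 and 3552 CPM in the ythdf2 morphant columns against 16359 and 16233 CPM in the control columns (−2.19, −2.21 to −2.18). Tropomyosin tpma had −2.59 (−2.62 to −2.57) and the Z-disc genes ldb3a and tcap, already named, were the lowest of the list. The myogenic factor MYOD1 was under 2-fold apart at −0.95 (−1.37 to −0.54), and MEF2D stood at 0.06 (−0.27 to 0.38). Fast myosin and actin genes have close copies, so their counts may be shared among them.

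**Figure D3:**
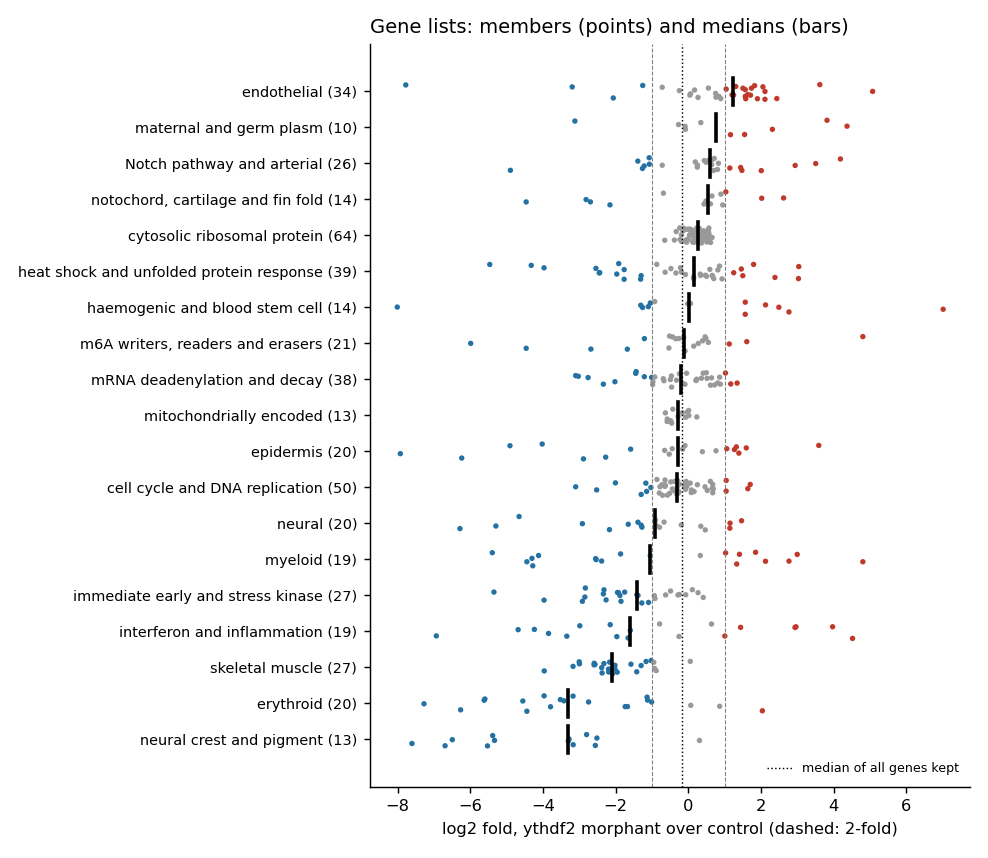
Each point is the log2 fold, ythdf2 morphant over control, of 1 member of a gene list, red where at least 2-fold higher, blue where at least 2-fold lower and grey between. Black bars are list medians, ordered from 1.23 (endothelial, top) to −3.30 (neural crest and pigment, bottom), the dotted line is the median of all kept genes at −0.16, and numbers in parentheses are members that passed the count minimum.

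Pigment cell and erythroid genes were lower as well. In the neural crest and pigment list 12 of 13 kept members were lower, none was higher, and the median was −3.30. Among all genes 32.2% were lower and 21.6% higher, and among genes under 10 CPM 48.9% and 28.0%. These shares were not matched to the levels of the list. Against the same control pool, the mettl3 morphant pool had 10 members lower and none higher, with a median of −3.05. Of 13042 genes in that mettl3 comparison, 31.7% were lower and 19.4% higher. Without control column 1 or 2, or with a minimum of 100 counts, fewer members were kept and the median was −5.37, −4.39 or −5.36. The melanin synthesis gene DCT had no count in the ythdf2 morphant columns against 356 and 316 counts in the control columns, at least 195-fold lower, and TFAP2A, a neural crest and epidermal factor, was at least 104-fold lower. The melanosome gene pmela had 18.1 and 17.2 CPM in the ythdf2 morphant columns against 99.6 and 102 CPM in the control columns (−2.51, −2.79 to −2.25). In the ythdf2 morphant pool 7 of the 13 were at 0 and entered at the floor of 3 summed counts. These 7 passed the minimum only through the control pool, and so were lower by rule. The count of 12 lower members thus rests in large part on that rule, and the list median depends on the floor.

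In the erythroid list 17 of 20 kept genes were lower, 1 was higher, and the median was −3.30, against 32.2% lower and 21.6% higher among all genes. Those shares were 48.9% and 28.0% under 10 CPM and were not matched to the levels of the list. Without control column 1 or 2, 16 genes were kept and 13 were lower. The mettl3 morphant pool, set against the same control pool, had 14 members lower and none higher, with a median of −2.35. Of 13042 genes in that mettl3 comparison, 31.7% were lower and 19.4% higher. The embryonic globins hbae3 and hbbe3 had −3.17 (−3.51 to −2.85) and −3.79 (−4.34 to −3.28), the haem synthesis gene alas2 −4.55 (−6.02 to −3.40) and the erythroid factor gata1a −5.62 (−8.68 to −3.73), on 2 counts in the ythdf2 morphant pool. The higher member was tspo, a mitochondrial membrane protein (2.04, 1.79 to 2.30). The summed scaled level of the list was 237 and 219 CPM in the ythdf2 morphant columns and 493 and 493 CPM in the control columns. Globin genes have close copies among which reads may be split.

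Neural, epidermal and notochord genes lay on both sides, and the 21.6% higher and 32.2% lower among all genes are the background for their counts. Of 20 neural genes 3 were higher and 9 lower (median −0.91). The neural tube factor olig4 was at 0 against 269 control counts, while the progenitor factor SOX3 had −1.27 (−1.40 to −1.15) and the inhibitory transmitter transporter SLC32A1 1.47 (1.27 to 1.67). Of 20 epidermal genes 6 were higher and 7 lower (median −0.30), and the simple-epithelial keratins krt8 and krt18a.1 lay opposite to the tight junction gene cldnb. krt18a.1 had 6225 and 6212 CPM in the ythdf2 morphant columns against 2481 and 2487 CPM in the control columns (1.32, 1.301 to 1.35), whereas cldnb had −7.93 (−10.97 to −6.07), on 2 against 559 summed counts. Among 14 notochord, cartilage and fin fold genes 3 were higher and 4 lower (median 0.55), shares close to that background, with 2.02 for the fin fold gene and2 and −2.69 for the basement membrane gene fras1.

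The Notch pathway and arterial list asked whether genes of arterial fate differed. Of 53 listed genes 28 matched and 26 passed the minimum, of which 7 were higher, 6 lower and 13 under 2-fold apart. Among all genes 21.6% were higher and 32.2% lower, so these counts alone do not set the list apart. The median log2 fold of the list was 0.60. The median of the endothelial list, which holds the same cells' markers, was 1.23. Among the ligands, dll4, the arterial Notch ligand, had 493 and 483 CPM in the ythdf2 morphant columns against 179 and 181 CPM in the control columns (1.44, 1.36 to 1.53). The ligand dlc had 490 and 498 CPM against 183 and 172 CPM in control (1.48, 1.39 to 1.56). Others were lower, with −4.90 (−6.04 to −3.95) for jag1a, at 1.05 and 1.302 CPM against 35.4 and 34.6 CPM in control, and −1.39 (−1.53 to −1.25) for dlb.

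Receptors of the pathway were under 2-fold apart, with 0.44 (0.24 to 0.65) for notch2 and 0.72 (0.30 to 1.14) for NOTCH3. The notch1a gene has no single identifier in the gene name table and no value here, nor has the arterial ephrin efnb2a. The glycosyltransferases LFNG and mfng, which tune ligand choice, had −1.26 (−1.36 to −1.16) and −1.08 (−1.35 to −0.80), the second being −0.88 with total-count scaling. The coactivator MAML1 had −1.21 (−1.63 to −0.81) and its relative MAML3 0.64 (0.35 to 0.93).

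The 3 highest folds of the list were those of the transcriptional targets HEY1, heyl and HEY2. HEY2, an arterial Notch effector, had 338 and 352 CPM in the ythdf2 morphant columns against 42.2 and 47.7 CPM in the control columns (2.94, 2.79 to 3.10). HEY1 had 31.2 and 31.0 CPM against 2.03 and 1.37 CPM in control (4.19, 3.44 to 5.05), and heyl 3.51 (2.57 to 4.61). The Hes-type repressor her12 had 2.01 (1.74 to 2.29), her4.1 1.14 (0.43 to 1.89) and her15.1 −1.07 (−1.25 to −0.89). In the alternatives the log2 fold of her4.1 was 0.76 to 1.56 and that of her15.1 −1.15 to −0.87. With total-count scaling 4 members of the list were lower in place of 6. In the mettl3 morphant pool, set against the same control pool, the log2 folds were 0.25 for dll4, 0.81 for dlc, 1.79 for HEY2, 0.75 for HEY1 and 2.84 for heyl.

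**Figure D4:**
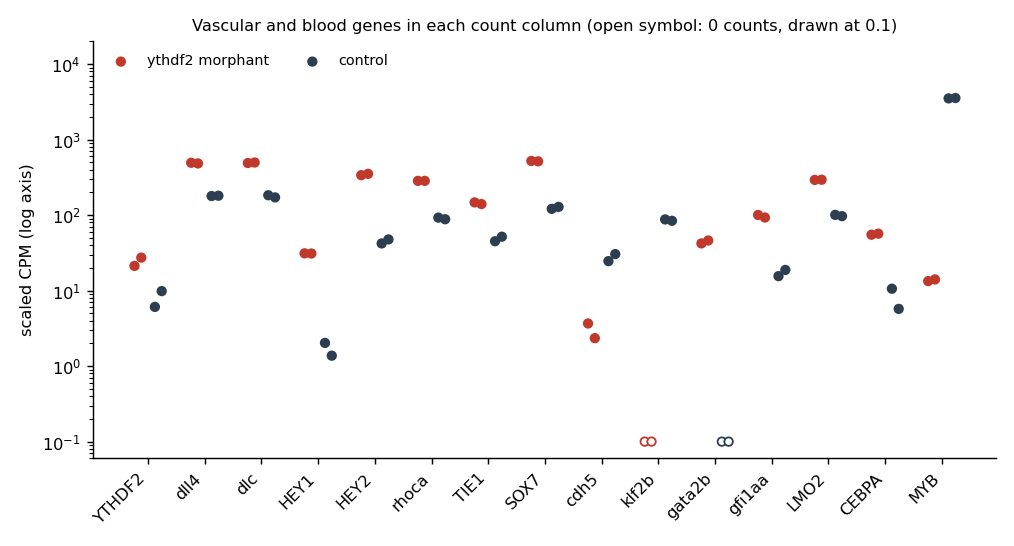
Scaled CPM on a log axis for 15 genes in each count column, ythdf2 morphant (red) left of control (dark) for each gene. Open symbols at 0.1 mark columns with 0 counts, in ythdf2 morphant for klf2b and in control for gata2b. The columns of a pool nearly coincide, dll4 lies at 493 and 483 CPM in ythdf2 morphant against 179 and 181 CPM in control, and MYB at 13.4 and 14.1 CPM against 3515 and 3557 CPM.

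Genes of haemogenic endothelium and blood stem cells pointed both ways. Of 36 listed genes 24 matched and 14 passed the minimum, with 6 higher and 5 lower, against 21.6% and 32.2% of all genes. The median log2 fold of the list was 0.02, or 1.57 over the 11 genes with at least 100 counts. The lower members were 3 with total-count scaling or without ythdf2 morphant column 1, and 2 without control column 1. MYB (ENSDARG00000053666), needed for definitive blood stem cells, had 13.4 and 14.1 CPM in the ythdf2 morphant columns against 3515 and 3557 CPM in the control columns (−8.01, −8.30 to −7.73). The mettl3 morphant pool had a log2 fold of −10.27 against the same control pool. Trunk inputs of control embryos held 9.19 and 16.1 CPM of MYB, so the control endothelial pool stood far above trunk and the ythdf2 morphant pool within the trunk range.

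The pattern of gata2b (ENSDARG00000009094) was opposite. It had 161 and 177 counts in the ythdf2 morphant columns and no count in the control columns, and was at least 130-fold higher. In the mettl3 morphant columns it had 7 and 7 counts, and in control trunk inputs 0.244 and 0.367 CPM. RUNX1, which acts after gata2b in the same cells, had no count in any endothelial column, and 10 and 8 counts in control trunk inputs, so its level could not be measured at this depth, where a count of 0 allows up to 3 counts in a pool. gata2b was 1 of the 54 genes at 0 in the control pool with at least 100 counts in the ythdf2 morphant pool.

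Among the other haemogenic genes, the repressor gfi1aa had 100.4 and 93.0 CPM in the ythdf2 morphant columns against 15.6 and 18.8 CPM in the control columns (2.49, 2.24 to 2.76). LMO2, an adaptor of endothelial and blood transcription complexes that also stands in the endothelial list, had 1.57 (1.46 to 1.68), while its partner TAL1 stood at 0.06 (−0.13 to 0.25). The RUNX1 partner CBFB had 1.57 (1.23 to 1.92), the leukocyte phosphatase ptprc 2.13 (1.54 to 2.76) and the myeloid factor CEBPA 2.77 (2.41 to 3.15). TET2, a DNA demethylation enzyme, had −1.10 (−1.46 to −0.75), and was −0.90 with total-count scaling. CEBPB, under 2-fold apart, had 308 and 304 CPM in the ythdf2 morphant columns against 580 and 580 CPM in the control columns (−0.92, −0.995 to −0.85).

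Of 19 kept myeloid genes 8 were higher, 10 lower and 1 between, against 21.6% higher and 32.2% lower among all genes. Those shares were 28.0% and 48.9% under 10 CPM and were not matched to the levels of the list. Of the 10 lower genes, 6 were at 0 in the ythdf2 morphant pool and so were lower by rule. The median log2 fold was −1.05 and depended on genes of few counts and on whether a control column was left out. It was 1.18 with a minimum of 100 counts, where 7 of 12 genes were higher and 4 lower, −0.23 without control column 1 and 0.35 without control column 2. The summed unscaled level of the 27 matched genes was 1201 CPM in the ythdf2 morphant pool, 1072 CPM in the mettl3 morphant pool and 551 CPM in the control pool, against 1305 and 1712 CPM in trunk inputs. Genes of phagocytes and the oxidative burst were among the lower ones, with IRF8, NCF1, grna, cyba and ctss2.1 at 0 in the ythdf2 morphant pool. IRF8 was at least 42.0-fold lower, on 145 control counts. Higher were rac2, a GTPase of blood cells (2.999, 2.77 to 3.24), the lipid carrier apoeb (1.85, 1.72 to 1.99) and cd74a, at 32 and 41 counts against 0 in control. The neutrophil enzyme gene lyz had 1 count in the ythdf2 morphant pool and 3 in the control pool.

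Immediate early genes, which respond within minutes to growth factors, stress or cell handling, were lower as a list. Of 27 kept members none was higher and 17 were lower, where 21.6% and 32.2% of all genes were, and the median log2 fold was −1.41. ATF3 had 122 and 113 CPM in the ythdf2 morphant columns against 1861 and 1824 CPM in the control columns (−3.97, −4.07 to −3.87). egr1 had −2.83 (−3.00 to −2.67), egr2a −5.35 (−6.03 to −4.74), JUN −1.88 (−1.93 to −1.83) and FOSB −1.85 (−1.99 to −1.71). The summed level before scaling was 4003 CPM in the ythdf2 morphant pool, 9896 CPM in the mettl3 morphant pool and 10664 CPM in the control pool, against 711 and 914 CPM in trunk inputs. All endothelial pools were above trunk, the ythdf2 morphant pool the least.

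Of 39 heat shock and unfolded protein genes 7 were higher and 12 lower (median 0.15), shares close to the 21.6% and 32.2% of all genes, so the counts say nothing particular of this list. Among cytosolic chaperone genes dnajb1b had 43.2 and 41.2 CPM in the ythdf2 morphant columns against 6.54 and 9.62 CPM in the control columns (2.39, 2.01 to 2.78), hsp70l 1.502 (1.28 to 1.73) and the heat shock factor hsf1 3.03 (2.27 to 3.89). Its relative HSF2 had −5.46 (−6.69 to −4.47) and the mitochondrial chaperone HSPA9 −2.44 (−2.58 to −2.30). The small heat shock genes hspb9 (−2.54), HSPB1 (−1.91) and HSPB8 (−1.31) and the muscle chaperone hsp90aa1.1 (−1.30), also counted in the muscle list, were on the lower side. The skeletal muscle markers moved with them, and their part was not tested.

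Interferon and inflammation genes were lower in 10 of 19 cases and higher in 6 (median −1.60), against 32.2% lower and 21.6% higher among all genes. Among genes under 10 CPM the shares were 48.9% lower and 28.0% higher. They were not matched to the levels of this list, so its counts alone do not set it apart. The chemokine gene cxcl18b had 8.65 and 8.86 CPM in the ythdf2 morphant columns against 229 and 220 CPM in the control columns (−4.68, −5.06 to −4.33). The NF-kappaB inhibitor nfkbiab had −1.97 (−2.10 to −1.83) and the adaptor MYD88 −3.85 (−4.60 to −3.18). The higher members were on few counts, such as mxa and tlr4ba with 20 and 41 counts in the ythdf2 morphant pool and 0 in control. Without ythdf2 morphant column 1 only 2 of 15 kept members were higher, and without column 2 only 2 of 16. The median was −2.13 without ythdf2 morphant column 1, −0.78 without control column 1 and −1.10 without control column 2.

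Cell cycle and DNA replication genes mostly stayed under 2-fold apart, with 4 of 50 higher and 7 lower, against 21.6% and 32.2% of all genes. Those shares depend on level, with 16.2% higher and 17.1% lower among genes of 30 to 100 CPM. They were not matched to the levels of the list. Their median was −0.30. The replication clamp PCNA had 882 and 899 CPM in the ythdf2 morphant columns against 1069 and 1055 CPM in the control columns (−0.25, −0.30 to −0.21). The licensing factor CDC6 had −3.10 (−3.50 to −2.72) and the mitotic kinase aurka −2.005 (−2.29 to −1.73), against 1.64 (1.36 to 1.92) for ORC1 of the origin recognition complex and 1.71 (1.48 to 1.94) for the cell cycle inhibitor RB1. With total-count scaling 4 members were lower, and without ythdf2 morphant column 1 only 2 were higher.

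Genes of the m6A machinery were near the median of all genes, with a median of −0.13. Of 21 kept genes 3 were higher and 5 lower, against 21.6% and 32.2% of all genes. YTHDF2 and the writer-complex gene VIRMA (1.13, 0.90 to 1.36) were higher, and so was the demethylase gene FTO, with 38 and 35 counts against 0 in control. The other demethylase gene, ALKBH5, had 1 and 0 counts against 33 and 40 counts in control (−5.99, −11.31 to −3.47). The nuclear reader YTHDC1 was at 0 against 76 control counts, at least 22.04-fold lower. FXR2 and FXR1, RNA-binding proteins linked to m6A, had −2.68 (−2.84 to −2.53) and −1.68 (−1.83 to −1.53). WTAP stood at −0.13 (−0.31 to 0.05) and METTL14 at −0.53 (−0.84 to −0.23).

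The deadenylation and decay machinery, through which Ythdf2 acts, had 3 of 38 kept genes higher and 9 lower (median −0.20). The shares of all genes were 21.6% and 32.2%, or 16.2% and 17.1% at 30 to 100 CPM, and were not matched to the levels of the list. CNOT1, the scaffold of the deadenylase complex that Ythdf2 contacts, had 122 and 100.3 CPM in the ythdf2 morphant columns against 95.8 and 95.3 CPM in the control columns (0.21, 0.08 to 0.35). The catalytic subunit CNOT7 had 1.17 (0.74 to 1.61), which was 0.70 without ythdf2 morphant column 1. Lower were the decapping activator EDC3 (−3.10, −4.01 to −2.30), the nonsense-mediated decay factor upf3a (−3.03, −3.79 to −2.34), the 5′ exonuclease XRN1 (−2.02, −2.59 to −1.48) and BTG2 (−2.34, −2.39 to −2.29), an antiproliferative cofactor of deadenylation that is also an immediate early gene. With total-count scaling 6 members were higher and 8 lower.

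Ribosomal protein and mitochondrially encoded genes lay in a narrow range, while 8.87% of all genes of 1000 CPM and over were higher and 22.6% lower. Their range is thus no scale for the folds of other genes. None of 64 ribosomal protein genes was 2-fold apart in any setting tried, with a median of 0.28 and a range from −0.65 (RPL22L1) to 0.66 (RPL22). None of 13 mitochondrially encoded genes was either, with a median of −0.28, and MT-CO1 had 43632 and 43375 CPM in the ythdf2 morphant columns against 43120 and 42830 CPM in the control columns. Among 10 maternal and germ plasm genes 5 were higher and 1 lower (median 0.75), against 21.6% and 32.2% of all genes. The members were mostly on few counts, such as buc, an organizer of germ plasm, at 27 and 27 counts against 0 in control. Over the 4 members with at least 100 counts the median was −0.08, and without ythdf2 morphant column 1 or 2 it was 0.10 or 0.46. Without control column 1 or 2 it was 1.25 or 1.12.

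The study's question about Ythdf2 concerns transcripts that carry m6A and are bound by the reader, so the endothelial folds were also read by these classes. Of 23163 genes tested in the trunk, 1119 (4.83%) were m6A-enriched, at a log2 fold of control IP over control input above 1 and an edgeR adjusted p below 0.05. Of 21005 genes, 1502 (7.15%) were enriched in Ythdf2 RIP over control input by the same thresholds. In the endothelial comparison 526 m6A-enriched and 700 RIP-enriched genes passed the count minimum, and 110 were in both classes. The classes come from other libraries than the endothelial ones, and they describe whole trunk and, for RIP, embryos with injected ythdf2-Flag mRNA.

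The medians of the classes lay near that of all kept genes. In simulated data the RIP fit recovered 0% of 2-fold and 4% of 4-fold changes. That simulation gave 6 calls, 2 of them false, against 1502 calls in the data. On so few calls it gives no usable share of false calls among the 1502. The RIP class held 237 to 3861 genes without 1 library, so its median says little of Ythdf2-bound transcripts. The median log2 fold, ythdf2 morphant over control, was −0.04 for m6A-enriched genes, −0.23 for RIP-enriched genes, −0.05 for genes in both classes and −0.17 for genes in neither. Of m6A-enriched genes 27.8% were higher and 30.04% lower, of RIP-enriched genes 26.1% and 34.0%, and of the 110 genes in both 33 were higher and 32 lower, against 20.6% and 32.0% of genes in neither. The share of higher genes was thus larger in each class than among genes in neither, with no test of that difference. The medians of the m6A and RIP classes changed sign when either control column was left out. That of the RIP class also changed sign without either trunk control input. Without control column 1 or 2 the median of m6A-enriched genes was 0.28, and that of all genes 0.04. Without trunk control input 1 the RIP class held 284 genes with a median of 0.67, and without input 2 it held 237 genes with a median of 0.20. Input 1 had reads of 151 bases and the other libraries of the RIP fit reads of 101 bases. The class shrank without either input, and the part of read length was not tested. Without RIP library 1 it held 3861 genes, with a median of −0.24. Without input 1 or 2 the m6A class held 627 or 671 genes, with medians of −0.02 and −0.14.

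Level and class were linked, so the classes were also read within 3 equal classes of mean CPM. In the highest class (29.98 CPM and over) the median was 0.43 for 141 m6A-enriched genes, 0.14 for 168 RIP-enriched genes and 0.04 for all 4401 genes. In the middle class the medians were −0.16, −0.18 and −0.10. In the lowest class they were −0.18, −1.001 and −1.26. The shares at least 2-fold higher, in the same order of groups, were 19.9%, 20.8% and 14.7% in the highest class. They were 23.3%, 23.1% and 22.2% in the middle class and 36.8%, 31.6% and 28.0% in the lowest. The difference from all genes was thus smallest in the middle class. Over 4 equal classes of all genes, going up in m6A enrichment, the median endothelial fold was −0.14, −0.19, −0.15 and −0.18, and over 4 classes going up in RIP enrichment −0.09, −0.20, −0.20 and −0.20. Against the same control pool the mettl3 morphant pool had medians of −0.26 for m6A-enriched, −0.32 for RIP-enriched and −0.28 for all kept genes.

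**Figure D5:**
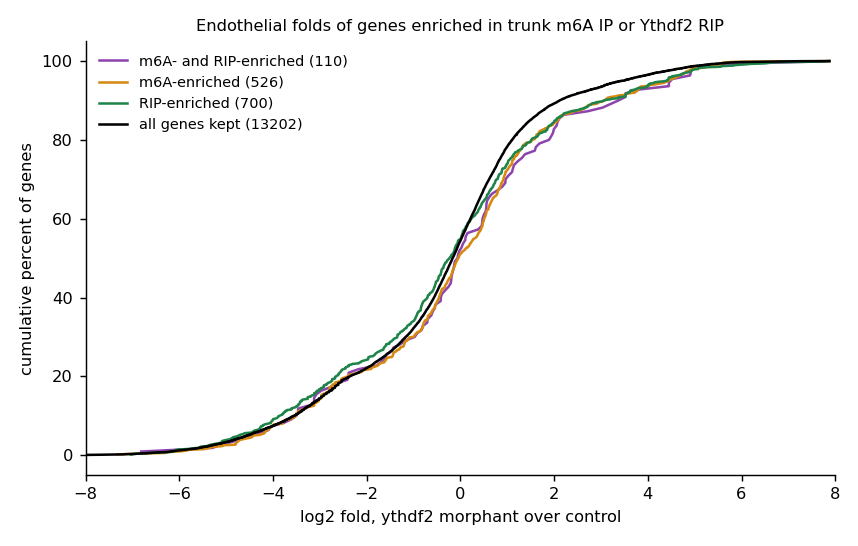
Cumulative percent of genes by log2 fold, ythdf2 morphant over control, for genes enriched in both trunk m6A IP and Ythdf2 RIP (purple), in m6A IP (orange), in RIP (green) and for all kept genes (black). Genes of all levels are drawn together. The curves run close together up to a log2 fold near 0, where the medians lie between −0.23 and −0.04, and the class curves lie below the black one at positive folds, where 27.8% of m6A-enriched and 26.1% of RIP-enriched genes were at least 2-fold higher against 21.6% of all genes.

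Within both classes the folds spread widely. The members farthest apart on the higher side were FJX1, a relative of the fly gene four-jointed, with 108 and 96 counts in the ythdf2 morphant columns against 1 and 0 in the control columns (7.87, 5.38 to 13.18), then WBP1L, SNX18, PCDH1 and si:ch211-248g18.6, all at 0 in control and at least 21.8-fold to at least 31.0-fold higher. On the lower side were the Wnt receptor FZD10 (387 control counts), emilin1a (117), the neural factor lhx1a (87) and SHISA3 (59), all at 0 in the ythdf2 morphant pool, and the neural factor ZIC1, at 5 and 3 counts against 177 and 184 in control (−5.29, −6.52 to −4.30). The lower side includes genes of neural tissue, of whose 20 kept markers 9 were lower and 3 higher in the ythdf2 morphant pool. Among all genes the shares were 32.2% and 21.6%. lhx1a is itself among those 9 markers. The part of neural tissue in these folds was not tested.

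Of the vascular genes, dll4 had a trunk m6A log2 fold of 0.91 (edgeR adjusted p = 0.00422), under the threshold of 1, and a RIP log2 fold of 1.77 with an adjusted p = 0.0594. SOX7 had 0.89 (adjusted p = 0.0135) and 2.59 (adjusted p = 0.0280) by edgeR, and was in the RIP class alone. aplnra was also RIP-enriched (2.87, edgeR adjusted p = 0.0367). Neither rhoca (m6A 0.30, edgeR adjusted p = 0.122) nor MYB (0.48, adjusted p = 0.196) was in a class. YTHDF2 itself was in both (m6A 1.34, RIP 3.24, edgeR adjusted p = 0.00384 and 0.0303), and in RIP the injected and the endogenous transcript cannot be told apart.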

How the data were processed

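Counts per gene (readsCount) were used as the authors deposited them, on 33737 gene identifiers. Per the labels' protocols reads were paired, of 101 bases in the endothelial and RIP libraries, and of 151 bases in replicate 1 and 101 bases in replicate 2 of the trunk IP and input libraries. Per the submitters' processing notes the tools named include TopHat2 2.0.9 and HTSeq 0.5.3p9. HTSeq's summary rows were dropped. No-feature reads were 10.5% in ythdf2 morphant and 9.72% to 9.74% in control columns. No column lacked a sample (0 columns). Peak, miCLIP and RIP region lists were not used here.

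The 2 columns of a group were summed, since they differed by little more than counting noise, and counted as 1 sample. Pools were scaled by TMM (edgeR 4.0.16 in R 4.3.3). Genes needed 20 summed counts in at least 1 pool. A fold is the ratio of scaled sums with an exact Clopper-Pearson 95% interval (scipy 1.17.1, Python 3.11.15), which covers counting error only. A pool at 0 entered at a floor of 3 summed counts. At least 2-fold counted as higher or lower, with no test. Mettl3 morphant values use the same control pool. Unscaled CPM divides by total gene counts.

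The m6A class came from edgeR's quasi-likelihood test over 8 trunk libraries and the RIP class from 4, with Benjamini-Hochberg adjusted p-values. The labels do not say whether trunk replicates came from separate clutches, so these p-values measure the spread between libraries. Simulated data had 200 changed genes among 13202, of which 94.5% lay within the interval of the fold. In the simulation for the m6A class (22670 genes) 49% of 2-fold and 98% of 4-fold changes were recovered, with 16 false among 163 calls. In that for the RIP class (20703 genes) 0% and 4% were, with 2 false among 6 calls. In the 8 trunk libraries the replicate number therefore marks a shared read length, and same-numbered libraries deviated together (correlations of 0.138 to 0.448 over 6 pairs of groups). DESeq2 1.42.0, total-count scaling, other minimums, folds and left-out columns or libraries served as alternatives.

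The members and the 21 gene lists (962 symbols, 637 matched to 1 identifier) were chosen with earlier results of these data known. One listed symbol, dld, was dropped because the name table gives it to another gene. Symbols are those of the name table, which covered 65.0% of identifiers. Genes were named by rule. They were 13 genes fixed for the study's question, the 12 highest and 12 lowest by the interval limit nearest to 0 among genes with a symbol at least 2-fold apart in all 4 pairings of columns, the 2 highest and 2 lowest in each list, and the 5 highest and 5 lowest in both classes. Genes of at least 100 CPM and other list members were named after their values were seen. Results for a few named genes and for 2 of the lists are not reported here.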

Additional observations from a re-analysis of the deposited data

How the results depend on the processing

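No paired analysis was possible because the endothelial comparison has 1 sample per group and no test. Higher and lower genes numbered 3399 and 3914 with total-count scaling, 2865 and 4252 with DESeq2 scaling, 3477 and 5544 with no minimum, 4034 and 5217 at 1.5-fold, and 2121 and 3534 by the interval limit. With a minimum of 100 counts, where fewer genes are tested, they were 1580 and 2116. Leaving out 1 column gave 2266 to 3003 higher and 3196 to 4374 lower genes, and all-gene medians of −0.31 to 0.04.

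The m6A class held 3166 genes (median endothelial fold −0.21) at any log2 enrichment above 0, and 627 to 1019 without 1 library. The RIP class held 2936 genes with DESeq2, 407 with total counts and 237 to 3861 without 1 library, so its membership is weakly fixed. Over left-out columns and libraries the median fold was −0.25 to 0.28 for the m6A class and −0.45 to 0.67 for the RIP class, and −0.033 for the RIP class with total-count scaling. The cause was not tested. With the replicate block, which in the trunk IP and input libraries is also the read length, the m6A class held 1287 genes (median −0.02) and the RIP class 1336 (median −0.24), so it moved neither count by over 1.5 times.

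Of 533 list genes, 68 were on another side of 2-fold in some setting (39 with total-count scaling), and 0 became 2-fold apart in the opposite direction. Genes under 10 CPM are limited most by depth.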
